A study of Mus musculus with 13 samples.

Results

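The 43 genes described here encode the proteins that license replication origins, unwind and copy DNA, and supply its building blocks. They were chosen by name and function among the 34709 genes of a count table made from mouse lower incisors. The choice was made with earlier results of these data known, so the shares of all tested genes given beside them are descriptive. All 43 were found, and all 43 passed the filter on low counts that left 17837 genes for testing. The RNA of 13 libraries came from whole lower incisors pulled from male pups on postnatal day 5. The study asked what the vitamin D receptor, Vdr, does in the tooth by setting 2 mutants beside controls. There were 3 libraries of VDRgem incisors, 5 of VDR-null incisors and 5 of control incisors, the last called wild type in the study's design. From general knowledge, the VDRgem receptor answers synthetic gemini analogs but not the natural hormone, and VDR-null animals make no functional receptor. Both mutations are carried by the whole animal and not by the tooth alone, and diet and genetic background are not given in the labels. Libraries are numbered here by their order within each group, and the numbers link no libraries across groups. The labels name neither the animal a library came from nor the number of teeth in it. The p-values therefore reflect only how much these libraries varied.

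DNA replication starts when the origin recognition complex (ORC), CDC6 and CDT1 load the ring-shaped MCM2-7 helicase onto DNA in G1 phase. At the start of S phase kinases and accessory factors, among them CDC45 and the GINS complex, turn the ring into a working helicase, and polymerases then copy both strands behind it with the help of the sliding clamp PCNA. Most of these genes are transcribed in dividing cells and low in resting ones, and in the continuously growing mouse incisor dividing cells sit mainly at the apical end, while mature ameloblasts and odontoblasts line the rest of the tooth.

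Transcripts of the replication machinery were lower in VDRgem incisors than in control incisors. Of the 43 genes, 25 fell and none rose at a Benjamini-Hochberg adjusted p under 0.05 in edgeR's quasi-likelihood test, where 3.82% of all tested genes fell. The median log2 fold change of the 43 genes was -0.62, against 0.00 for all tested genes, and the sign was negative for 42 of them. In 37 of the 43, every VDRgem library lay below every control library, a pattern shown by 10.3% of all tested genes. All 6 subunits of the MCM2-7 helicase, all 3 licensing factors and all 3 nucleotide supply genes fell, whereas 4 of the 6 ORC subunits and 5 of the 6 primase and polymerase genes did not pass the test. In bulk tissue, fewer dividing cells and less RNA in each of them cannot be told apart.

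The count of calls moved with single libraries more than the size of the difference did. Without VDRgem 1 none of the 43 genes passed (33 had an unadjusted p under 0.05), and without VDRgem 2 or VDRgem 3 the count was 8 or 9. Of all tested genes 0.149%, 1.74% and 4.22% were lower in these 3 fits, so the calls without VDRgem 1 were few over the whole table. Without control 1, 2, 3, 4 or 5 the count was 9, 10, 16, 7 or 5, and 1.37% to 2.45% of all tested genes were lower. Over these 8 fits the median log2 fold change of the 43 genes stayed between -0.65 and -0.52, and no gene rose.

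**Figure D1:**
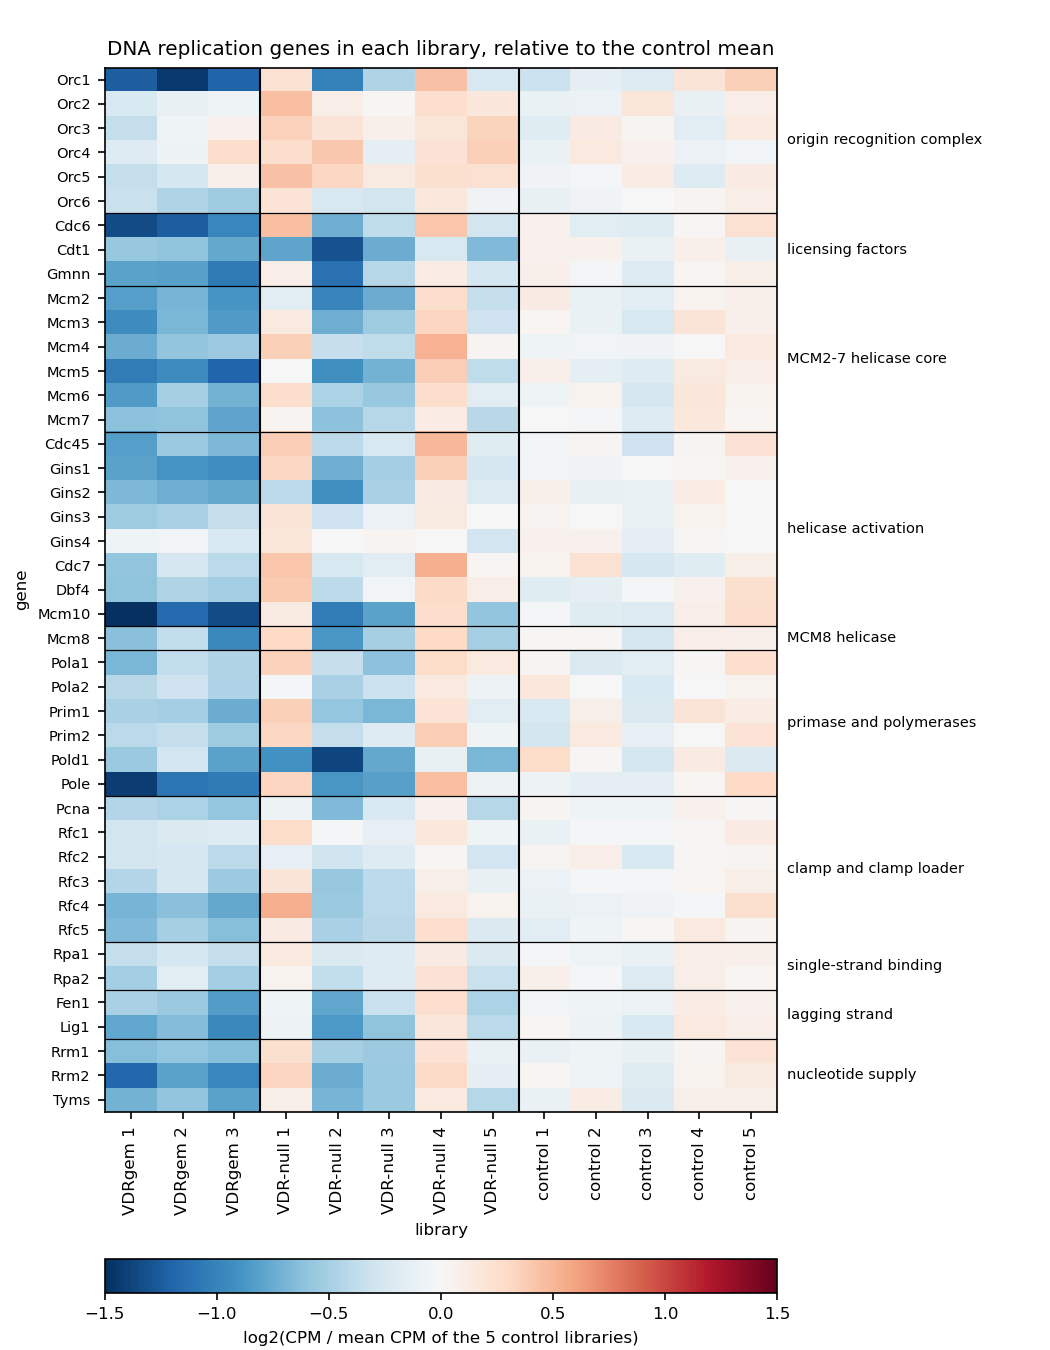
Level of each of the 43 genes (rows, by role) in each library (columns) as log2 of its CPM over the mean CPM of the 5 control libraries. The 3 VDRgem columns are blue in nearly every row, whereas the 5 VDR-null columns run from mostly blue in VDR-null 2 to mostly red in VDR-null 1 and 4.

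In the 43 genes the 3 VDRgem libraries were alike. VDRgem 1 lay below every control library in 42 of the 43 genes, against 31.4% of all tested genes, with Gins4 as the exception. VDRgem 2 did so in 38 genes (24.7% of all tested genes) and VDRgem 3 in 39 (24.7%). The median ratio of the 43 genes to the control mean was 0.651, 0.706 and 0.627 in VDRgem 1, 2 and 3. The single gene that lay above every control library in any of them was Orc4, in VDRgem 3, where 31.2%, 23.7% and 25.6% of all tested genes lay above every control library in VDRgem 1, 2 and 3.

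Promoter sequences of genes from different roles are shown because these genes fell together and E2F factors are textbook regulators of S-phase genes. RefSeq promoter windows of 300 bases (GRCm38.p6, 250 before to 50 after the annotated start) were available for 35 of the 43 genes and not for Gmnn, Mcm4, Gins1, Gins2, Gins4, Prim2, Pole and Rfc2. The E2F motif was searched as TTTCCCGC, TTTCGCGC, TTTGCCGC or TTTGGCGC on both strands, and its bases are in capitals. The first 4 windows belong to genes that fell, 1 from each role with such a window, and the last to Orc4, the gene with the largest p, whose window holds none of these letters. The Cdc6 window is chr11:98907901-98908200 on the plus strand, Mcm5 chr8:75109259-75109558 plus, Orc1 chr4:108579204-108579503 plus, Gins3 chr8:95633309-95633608 plus and Orc4 chr2:48950032-48950331 minus. In Mcm5 the capitals hold 2 motifs that overlap, 1 on each strand. The windows follow RefSeq starts, which differ from the ends of the GENCODE genes used for all other coordinates. By GENCODE the Cdc6 window lies wholly inside its gene, which starts at 98907801. Most of the Orc4 window lies inside its gene as well, whose upstream end is at 48950277.
Cdc6: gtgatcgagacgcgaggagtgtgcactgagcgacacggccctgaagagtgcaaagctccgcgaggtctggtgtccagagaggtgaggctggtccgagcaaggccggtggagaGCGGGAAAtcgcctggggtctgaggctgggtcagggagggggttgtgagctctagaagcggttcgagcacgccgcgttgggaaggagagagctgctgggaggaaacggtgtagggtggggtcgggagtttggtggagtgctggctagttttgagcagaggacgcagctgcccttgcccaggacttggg
Mcm5: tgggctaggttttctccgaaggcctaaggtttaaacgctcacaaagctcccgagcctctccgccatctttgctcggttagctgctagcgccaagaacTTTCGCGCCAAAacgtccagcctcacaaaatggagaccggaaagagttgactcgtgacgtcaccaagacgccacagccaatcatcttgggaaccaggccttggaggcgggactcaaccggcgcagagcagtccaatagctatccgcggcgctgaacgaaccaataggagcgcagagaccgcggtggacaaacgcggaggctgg
Orc1: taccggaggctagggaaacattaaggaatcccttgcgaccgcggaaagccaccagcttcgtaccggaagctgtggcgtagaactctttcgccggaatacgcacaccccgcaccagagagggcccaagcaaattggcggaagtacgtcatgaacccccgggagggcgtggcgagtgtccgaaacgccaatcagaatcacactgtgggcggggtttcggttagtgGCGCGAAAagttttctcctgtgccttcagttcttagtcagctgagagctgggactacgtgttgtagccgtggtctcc
Gins3: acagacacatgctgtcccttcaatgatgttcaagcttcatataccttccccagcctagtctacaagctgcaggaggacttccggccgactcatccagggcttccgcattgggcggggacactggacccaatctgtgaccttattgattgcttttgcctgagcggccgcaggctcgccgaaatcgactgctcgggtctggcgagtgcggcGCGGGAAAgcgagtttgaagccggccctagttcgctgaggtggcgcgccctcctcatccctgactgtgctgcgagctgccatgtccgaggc
Orc4: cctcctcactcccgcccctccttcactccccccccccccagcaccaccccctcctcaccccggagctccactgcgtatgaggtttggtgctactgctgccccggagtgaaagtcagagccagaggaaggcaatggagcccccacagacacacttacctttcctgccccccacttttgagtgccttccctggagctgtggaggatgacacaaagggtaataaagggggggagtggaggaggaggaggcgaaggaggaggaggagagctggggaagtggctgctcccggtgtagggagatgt

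An E2F motif was present in 13 of the 35 windows (37.1%), against 2.32% of the windows of 27025 genes. It was found in 8 of the 20 genes that fell and have a window (Cdc6, Cdt1, Gins3, Mcm3, Mcm5, Mcm6, Mcm7 and Orc1) and in 5 of the 15 others (Mcm8, Orc3, Pola1, Pold1 and Rfc3). The motif was thus present both in genes that fell and in genes that did not pass. A CCAAT box (CCAAT, both strands) was present in 21 of the 35 windows (60.0%), against 37.9% of all windows. The GC box (GGGCGG, both strands) was present in 25 (71.4%), against 35.9%. The median GC content of the 35 windows was 61.3%, against 52.7% for all windows. All motif shares, that of E2F included, were set against genes with a window, tested or not, without matching for GC content. The cell-cycle homology region (CHR; TTTGAA, both strands) was present in 6 (17.1%), against 18.1%. A vitamin D response element, searched on both strands in its direct-repeat form (DR3, a pair of hexamers in the same direction with 3 bases between them), was present in 1 window, that of Mcm7 (2.86%), against 0.252% of all windows. These matches describe letters in a window and not bound sites.

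The ORC binds origins and recruits the other licensing factors. Its largest subunit, Orc1 (chr4:108579423-108614833, plus strand), an ATPase, had 1.15, 0.990 and 1.17 CPM in VDRgem, 3.17, 1.34, 1.98, 3.67 and 2.29 CPM in VDR-null and 2.16, 2.46, 2.34, 3.10 and 3.46 CPM in control. All 3 VDRgem libraries lay below every VDR-null and every control library. Orc1 fell by 1.29 log2 units (SE 0.30, adjusted p = 0.0205) in VDRgem against control. It was also the least abundant ORC transcript per length, at 0.317 ± 0.0285 CPM per kilobase of exon in VDRgem, 0.716 ± 0.267 in VDR-null and 0.777 ± 0.158 in control (SD, n = 3, 5 and 5). Orc6, the smallest subunit, had 15.2, 14.1 and 13.3 CPM in VDRgem, 22.2, 16.3, 15.96, 21.5 and 18.6 CPM in VDR-null and 17.8, 18.6, 19.3, 19.8 and 20.7 CPM in control. VDRgem libraries again lay below those of both other groups, by a smaller margin. Orc6 fell by 0.44 log2 units (SE 0.12, adjusted p = 0.0338).

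None of the 4 other ORC subunits passed the test. Orc5, an ATPase-fold subunit, had 10.4, 11.1 and 14.1 CPM in VDRgem, 18.01, 16.5, 14.6, 15.8 and 15.6 CPM in VDR-null and 12.9, 13.1, 14.4, 11.7 and 14.5 CPM in control. All 5 VDR-null libraries lay above every control, and VDRgem 3 lay within the control range. Orc5 had a log2 difference of -0.17 (SE 0.12, adjusted p = 0.417) in VDRgem against control and 0.27 (SE 0.10, adjusted p = 0.131) in VDR-null against control. Orc4 (chr2:48902824-48950277, minus strand), a further ATPase-fold subunit, had 14.6, 15.8 and 20.01 CPM in VDRgem, 20.03, 22.2, 15.1, 19.4 and 21.5 CPM in VDR-null and 15.6, 18.5, 17.5, 15.7 and 16.2 CPM in control. All 3 groups overlapped, and VDRgem 3 was the highest of its group. Orc4 had a log2 difference of 0.01 (SE 0.13, adjusted p = 0.973). Orc2 and Orc3, which complete the core of the complex, had log2 fold changes of -0.14 and -0.11, and their VDRgem libraries overlapped with control. These 4 subunits stood at 1.92 to 5.36 CPM per kilobase in VDRgem and 2.16 to 5.89 CPM per kilobase in control.

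CDC6 joins ORC on DNA, CDT1 brings the helicase and geminin, the product of Gmnn, blocks CDT1 until the next division. Cdc6 (chr11:98907801-98923940, plus strand) had 2.82, 3.04 and 3.61 CPM in VDRgem, 9.78, 4.28, 5.49, 9.49 and 5.88 CPM in VDR-null and 7.49, 6.34, 6.31, 7.21 and 8.33 CPM in control. VDRgem libraries held less than every library of the other groups. Cdc6 fell by 1.18 log2 units (SE 0.25, adjusted p = 0.0168), which corresponds to 0.443 of the control level. Gmnn had 5.74, 5.68 and 4.77 CPM in VDRgem, 10.7, 4.61, 7.39, 10.7 and 8.30 CPM in VDR-null and 10.5, 9.75, 8.74, 10.2 and 10.6 CPM in control. VDRgem lay below control without overlap, and VDR-null 2 was the lowest library of all. Gmnn fell by 0.89 log2 units (SE 0.22, adjusted p = 0.0274). Cdt1 (chr8:122568015-122573554, plus strand) had 10.5, 10.3 and 9.20 CPM in VDRgem, 9.02, 6.33, 9.33, 13.3 and 9.85 CPM in VDR-null and 16.3, 16.3, 14.6, 16.4 and 14.4 CPM in control. Every VDRgem and every VDR-null library lay below every control, and the mutants overlapped with each other. Cdt1 fell by 0.64 log2 units (SE 0.17, adjusted p = 0.0358). The inhibitor and the factor it blocks were thus both lower in VDRgem.

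The MCM2-7 ring is the helicase core, built from 1 copy of each of its 6 subunits. Mcm5 (chr8:75109569-75128439, plus strand) had 27.9, 30.1 and 25.4 CPM in VDRgem, 57.9, 30.6, 35.4, 75.1 and 44.7 CPM in VDR-null and 60.96, 52.3, 50.6, 63.6 and 62.3 CPM in control. VDRgem libraries lay below all others, while VDR-null 4 was the highest and VDR-null 2 close to VDRgem. Mcm5 fell by 1.06 log2 units (SE 0.23, adjusted p = 0.0181). Mcm7 had 33.2, 33.7 and 29.5 CPM in VDRgem, 52.3, 33.3, 38.05, 55.1 and 38.2 CPM in VDR-null and 51.2, 50.3, 44.6, 56.9 and 52.1 CPM in control. No VDRgem library reached the lowest control, and VDR-null 2 lay between VDRgem libraries. Mcm7 fell by 0.67 log2 units (SE 0.15, adjusted p = 0.0194). Mcm3 had 31.8, 38.01 and 33.8 CPM in VDRgem, 67.8, 36.8, 42.1, 76.2 and 49.4 CPM in VDR-null and 62.5, 57.05, 51.5, 69.97 and 64.2 CPM in control, so that VDRgem and control again did not overlap. Mcm3 fell by 0.82 log2 units (SE 0.20, adjusted p = 0.0265). Mcm4 had 30.3, 33.5 and 34.5 CPM in VDRgem, 64.95, 39.96, 38.7, 72.8 and 52.2 CPM in VDR-null and 48.4, 49.3, 48.8, 50.3 and 56.2 CPM in control. All 3 VDRgem libraries were lower than the libraries of both other groups. Mcm4 fell by 0.63 log2 units (SE 0.18, adjusted p = 0.0430).

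Mcm2 and Mcm6 completed the set with log2 fold changes of -0.80 and -0.68, both called and both without overlap between VDRgem and control. The 6 subunits thus spanned -1.06 to -0.63 in VDRgem against control and -0.33 to 0.09 in VDR-null against control. Per length of exon, Mcm6 was the highest of them in VDRgem at 10.6 ± 1.31 CPM per kilobase and Mcm2 the lowest at 4.34 ± 0.295 (SD, n = 3). The length counts all annotated exons of a gene, 6956 bases for Mcm2, so these ranks depend on the gene models. In CPM the VDRgem mean was 30.2 for Mcm2 and 27.8 for Mcm5. Control had 16.9 ± 1.83 and 7.57 ± 0.618 CPM per kilobase for the same genes (SD, n = 5), with Mcm3, Mcm5 and Mcm4 at 16.3 ± 1.88, 14.5 ± 1.51 and 14.1 ± 0.893. The means of Mcm5 and Mcm4 in control differ by less than either SD.

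Helicase activation turns the loaded ring into the CDC45-MCM-GINS complex. Mcm10, a factor needed for the start of unwinding (chr2:4989714-5012791, minus strand), had 4.14, 6.27 and 5.57 CPM in VDRgem, 15.5, 6.83, 8.08, 16.97 and 9.31 CPM in VDR-null and 13.8, 12.4, 12.2, 15.1 and 16.9 CPM in control. VDRgem libraries lay below all others, with the lowest value in VDRgem 1. Mcm10 fell by 1.40 log2 units (SE 0.28, adjusted p = 0.0134), the largest fall of the 43 genes, which corresponds to 0.378 of the control level. Gins2, a GINS subunit, had 9.21, 8.87 and 8.59 CPM in VDRgem, 11.1, 7.78, 10.5, 15.9 and 12.8 CPM in VDR-null and 15.6, 13.6, 13.7, 15.8 and 14.8 CPM in control. VDRgem lay below control, and VDR-null 2 was lower still. Gins2 fell by 0.73 log2 units (SE 0.17, adjusted p = 0.0238). Of its annotated exon length 67.3% overlaps Gse1 on the opposite strand, which held 83524 counts beside 7724 for Gins2. Without the strand setting of the counting the reads of the pair cannot be told apart. Gins1, another GINS subunit, had 3.26, 3.06 and 3.003 CPM in VDRgem, 7.06, 3.44, 3.999, 7.32 and 4.78 CPM in VDR-null and 5.55, 5.49, 5.70, 5.84 and 5.96 CPM in control. All VDRgem libraries lay below the libraries of both other groups. Gins1 fell by 0.88 log2 units (SE 0.22, adjusted p = 0.0291).

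Gins4, the fourth GINS gene, did not pass the test. It had 18.7, 19.02 and 16.6 CPM in VDRgem, 22.2, 19.5, 20.2, 19.7 and 16.1 CPM in VDR-null and 20.4, 20.5, 17.6, 19.8 and 19.6 CPM in control. All groups overlapped. Gins4 had a log2 difference of -0.11 (SE 0.10, adjusted p = 0.554). Gins3 and Cdc45, the remaining parts of the active helicase, were called with log2 fold changes of -0.45 and -0.68. Cdc7, the kinase that triggers activation, and Dbf4, its regulatory subunit, had -0.41 (SE 0.19, adjusted p = 0.2) and -0.53 (SE 0.16, adjusted p = 0.0510), with every VDRgem library below every control for both. Mcm8, which together with MCM9 forms a helicase known from recombination repair rather than the origin ring, had 3.68, 4.42 and 2.92 CPM in VDRgem, 7.004, 3.10, 4.04, 7.03 and 4.05 CPM in VDR-null and 5.78, 5.78, 4.79, 6.11 and 6.01 CPM in control. VDRgem lay below control and overlapped with VDR-null. Mcm8 had a log2 difference of -0.63 (SE 0.26, adjusted p = 0.146).

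**Figure D2:**
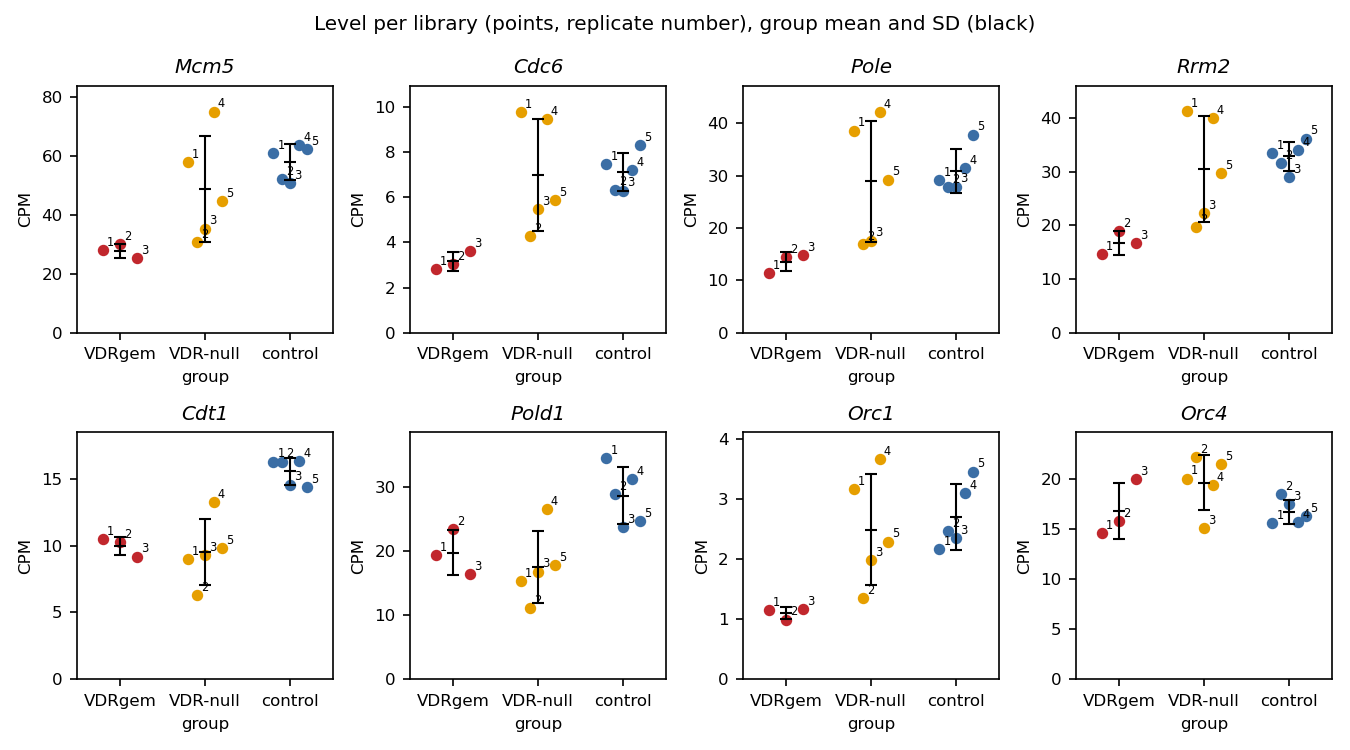
CPM of 8 genes in each library (points, numbered by replicate; black bars, group mean and SD; n = 3 VDRgem, 5 VDR-null and 5 control). VDRgem points sit tightly below control for Mcm5, Cdc6, Pole, Rrm2, Cdt1 and Orc1, VDR-null points spread widely, and Orc4 overlaps in all groups.

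Primase lays down the primers that polymerases extend, and 1 of these 6 genes passed the test. Pole, the catalytic subunit of the leading-strand polymerase epsilon (chr5:110286306-110337474, plus strand), had 11.4, 14.4 and 14.8 CPM in VDRgem, 38.6, 16.9, 17.6, 42.1 and 29.2 CPM in VDR-null and 29.1, 27.7, 27.9, 31.5 and 37.8 CPM in control. VDRgem libraries lay below all others, with VDR-null 1 and 4 above the control range, VDR-null 2 and 3 below it and VDR-null 5 within it. Pole fell by 1.19 log2 units (SE 0.27, adjusted p = 0.0211), to 0.439 of the control level. Pola2, the B subunit of polymerase alpha, had 18.2, 19.6 and 17.6 CPM in VDRgem, 23.98, 17.4, 19.4, 26.9 and 23.1 CPM in VDR-null and 27.1, 24.4, 20.7, 24.2 and 25.1 CPM in control. VDRgem was below control without overlap. Pola2 had a log2 difference of -0.39 (SE 0.13, adjusted p = 0.0803). Prim1, the catalytic primase subunit, had 10.5, 10.3 and 8.73 CPM in VDRgem, 18.7, 9.78, 9.13, 16.9 and 13.1 CPM in VDR-null and 12.5, 15.5, 12.6, 16.8 and 15.9 CPM in control. The VDRgem libraries were below every control but overlapped with VDR-null. Prim1 had a log2 difference of -0.58 (SE 0.21, adjusted p = 0.113). Pold1, the catalytic subunit of the lagging-strand polymerase delta (chr7:44532746-44548849, minus strand), had 19.4, 23.5 and 16.5 CPM in VDRgem, 15.3, 11.1, 16.8, 26.5 and 17.8 CPM in VDR-null and 34.5, 28.9, 23.8, 31.2 and 24.7 CPM in control. VDRgem 2 lay just below the lowest control, and the other VDRgem libraries well below it. Pold1 had a log2 difference of -0.53 (SE 0.22, adjusted p = 0.161). Pola1 and Prim2, the other subunits of the primase and polymerase alpha complex, had -0.49 (SE 0.19, adjusted p = 0.134) and -0.43 (SE 0.17, adjusted p = 0.129), with no overlap between VDRgem and control.

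PCNA is the sliding clamp that holds polymerases on DNA, and replication factor C (RFC) opens it. Rfc5, a small RFC subunit, had 11.99, 13.4 and 12.2 CPM in VDRgem, 20.7, 13.5, 14.2, 22.6 and 16.4 CPM in VDR-null and 16.9, 18.2, 19.3, 21.03 and 19.5 CPM in control. VDRgem lay below the other groups. Rfc5 fell by 0.60 log2 units (SE 0.16, adjusted p = 0.0310). Pcna had 25.3, 24.6 and 22.99 CPM in VDRgem, 32.6, 21.8, 29.2, 35.96 and 25.5 CPM in VDR-null and 35.5, 32.9, 32.8, 35.95 and 34.8 CPM in control. VDRgem lay below control, and VDR-null 2 lay lower still. Pcna fell by 0.50 log2 units (SE 0.13, adjusted p = 0.0320); the pseudogene Pcna-ps2 held 77 counts over all libraries, against 19221 for Pcna. Rfc4, a second small subunit, had 6.33, 6.62 and 6.01 CPM in VDRgem, 14.9, 6.93, 7.76, 11.4 and 10.7 CPM in VDR-null and 9.58, 9.61, 9.89, 10.1 and 12.1 CPM in control. No VDRgem library reached any library of the other groups. Rfc4 fell by 0.70 log2 units (SE 0.20, adjusted p = 0.0497). Of its exon length 12.7% overlaps Eif4a2 on the opposite strand, which held 84986 counts beside 6129 for Rfc4.

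Rfc1, the large RFC subunit, had 69.9, 72.7 and 73.6 CPM in VDRgem, 102.1, 82.4, 77.5, 94.2 and 80.7 CPM in VDR-null and 78.7, 82.8, 83.3, 85.7 and 91.7 CPM in control. VDRgem lay below both other groups, but by little. Rfc1 had a log2 difference of -0.23 (SE 0.09, adjusted p = 0.135). Rfc2 and Rfc3 had -0.30 (SE 0.09, adjusted p = 0.0618) and -0.41 (SE 0.15, adjusted p = 0.112), without overlap between VDRgem and control. RPA coats the single strands that the helicase exposes. Its large subunit Rpa1 had 60.8, 64.9 and 60.9 CPM in VDRgem, 86.3, 67.1, 67.99, 84.7 and 66.98 CPM in VDR-null and 76.8, 74.2, 72.5, 83.1 and 81.96 CPM in control. VDRgem was lower than every other library. Rpa1 had a log2 difference of -0.32 (SE 0.10, adjusted p = 0.0576). Its second subunit, Rpa2, had 18.4, 23.2 and 18.4 CPM in VDRgem, 27.03, 20.1, 22.7, 30.2 and 20.7 CPM in VDR-null and 27.6, 25.8, 22.6, 27.9 and 26.6 CPM in control. VDRgem 2 lay within the control range. Rpa2 had a log2 difference of -0.38 (SE 0.14, adjusted p = 0.104).

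Okazaki fragments of the lagging strand are trimmed by the flap nuclease FEN1 and joined by DNA ligase 1. Lig1 had 35.4, 38.7 and 31.1 CPM in VDRgem, 57.4, 33.5, 40.03, 68.3 and 45.98 CPM in VDR-null and 61.9, 57.5, 51.8, 67.3 and 64.8 CPM in control. All VDRgem libraries lay below control, and VDR-null 2 lay between them. Lig1 fell by 0.79 log2 units (SE 0.19, adjusted p = 0.0230). Fen1 had 16.5, 15.8 and 12.9 CPM in VDRgem, 22.1, 13.4, 18.3, 27.6 and 16.6 CPM in VDR-null and 22.4, 22.2, 21.9, 25.04 and 24.2 CPM in control. The groups VDRgem and control did not overlap. Fen1 fell by 0.62 log2 units (SE 0.18, adjusted p = 0.0496); 78.8% of its exon length overlaps Gm10143 on the opposite strand, which held 62 counts in all, and 5.37% overlaps Tmem258, also on the opposite strand, which held 41028 counts beside 12762 for Fen1.

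Deoxynucleotides come from ribonucleotide reductase and, for thymidine, from thymidylate synthase. Rrm2, the small reductase subunit made in S phase (chr12:24708241-24714146, plus strand), had 14.6, 18.9 and 16.7 CPM in VDRgem, 41.2, 19.6, 22.3, 39.99 and 29.6 CPM in VDR-null and 33.5, 31.5, 28.98, 34.1 and 36.1 CPM in control. VDRgem libraries lay below all others. Rrm2 fell by 0.98 log2 units (SE 0.22, adjusted p = 0.0184). Tyms, the thymidylate synthase, had 12.9, 14.0 and 12.1 CPM in VDRgem, 22.3, 12.97, 14.3, 23.4 and 15.7 CPM in VDR-null and 19.6, 22.7, 18.1, 22.4 and 22.4 CPM in control. VDRgem lay below control and overlapped with VDR-null 2. Tyms fell by 0.70 log2 units (SE 0.18, adjusted p = 0.0311). Rrm1, the large reductase subunit, had 65.3, 67.8 and 65.2 CPM in VDRgem, 119.9, 71.8, 69.4, 117.7 and 94.9 CPM in VDR-null and 94.9, 97.3, 93.6, 104.4 and 116.9 CPM in control. VDRgem was lower than every library of the other groups. Rrm1 fell by 0.62 log2 units (SE 0.17, adjusted p = 0.0355). In CPM, Rrm1 was the higher of the reductase subunits in every group. Per kilobase, Rrm2 stood at 6.03 ± 0.776 CPM in VDRgem and 11.9 ± 0.982 in control (SD, n = 3 and 5). Rrm1 stood at 6.001 ± 0.134 in VDRgem and 9.21 ± 0.870 in control. The length used counts all annotated exons of a gene, 11012 bases for Rrm1 and 2771 for Rrm2. The ratio of the subunits per kilobase depends on these lengths, so it does not rank their transcripts.

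**Figure D3:**
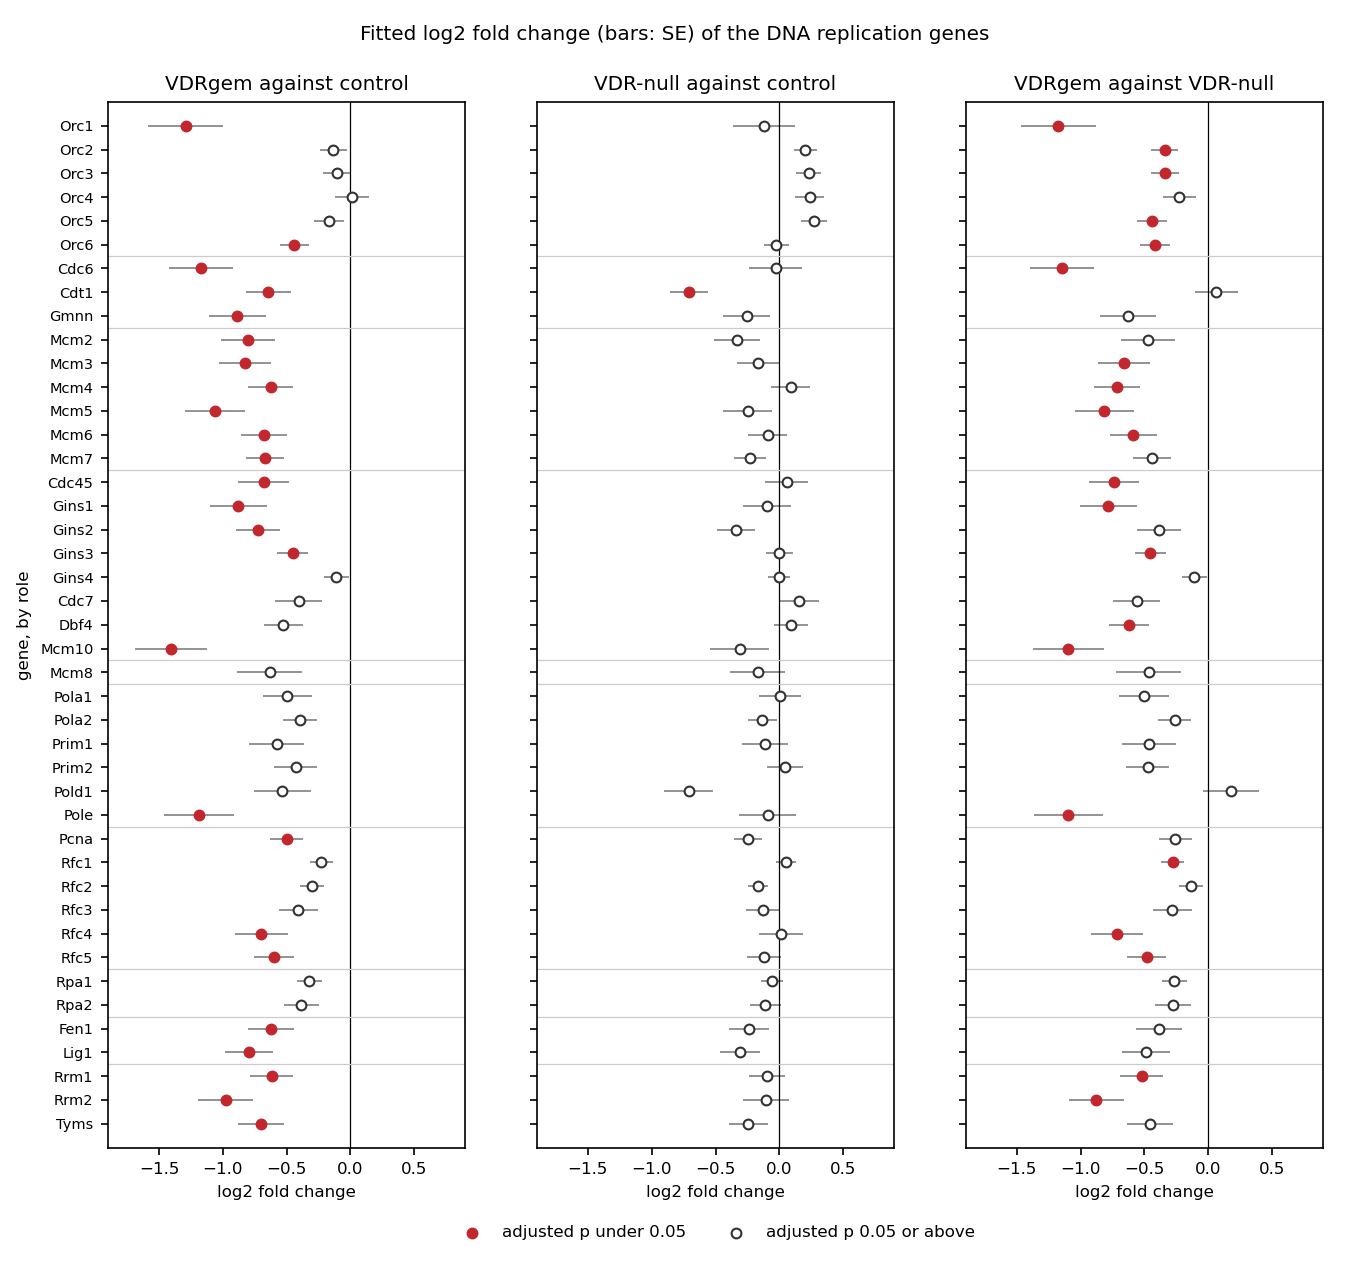
Fitted log2 fold change of each gene (rows, by role) with its SE (bars) in VDRgem against control, VDR-null against control and VDRgem against VDR-null; filled points have an adjusted p under 0.05. In the first panel 25 genes are filled and 42 are below 0, in the second only Cdt1 is filled, and in the third 21 genes are filled.

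In VDR-null incisors 42 of the 43 genes did not pass the test. Cdt1 was the single gene of the 43 that fell in VDR-null against control, where 0.656% of all tested genes fell, and none rose. The median log2 fold change of the 43 genes was -0.10, against 0.01 for all tested genes, with 30 negative and 13 positive signs. Every VDR-null library lay below every control for Cdt1 alone of the 43, against 3.18% of all tested genes, and above every control for Orc5 alone, against 3.91% of all tested genes. Cdt1 fell by 0.71 log2 units (SE 0.15, adjusted p = 0.0411), with the library values given above. That call was lost without VDRgem 2, without VDR-null 1, 2 or 5 and without control 1, 2, 3 or 4 (smallest adjusted p of any of the 43 genes 0.0583 to 0.102), and without VDR-null 4 the count was 2. Pold1 had the next smallest p and -0.71 (SE 0.19, adjusted p = 0.0640), and VDR-null 4 lay within the control range. Both mutants were set against the same 5 control libraries, so the values of Cdt1 in the pair of comparisons are not independent.

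The 5 VDR-null libraries ran in opposite directions. VDR-null 4 lay above every control library in 35 of the 43 genes and below every control in 1, Cdt1, where 24.0% of all tested genes lay above and 21.7% below. VDR-null 1 lay above every control in 26 genes and below in 5 (Cdt1, Mcm2, Gins2, Pold1 and Pcna), against 28.9% of all tested genes above and 29.0% below. VDR-null 2 lay below every control in 36 genes (27.8% of all tested genes) and above in 3 (29.1%). VDR-null 3 lay below in 32 genes (24.3%) and above in 1 (27.4%). VDR-null 5 stood between them, with 22 genes below every control (28.4% of all tested genes) and 3 above (28.0%). The median ratio of the 43 genes to the control mean was 1.15, 0.677, 0.758, 1.16 and 0.868 in VDR-null 1 to 5, so VDR-null 2 was close to the VDRgem libraries.

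The spread of the 43 genes within a group shows the same in numbers. Their median SD of log2 CPM was 0.122 in VDRgem, 0.379 in VDR-null and 0.132 in control, while over all tested genes it was 0.201, 0.236 and 0.161. For 40 of the 43 genes the SD was widest in VDR-null, the exceptions being Orc3, Orc4 and Orc5. The widest was that of Pole, at 0.618 in VDR-null, with 0.203 in VDRgem and 0.186 in control. A group mean of VDR-null therefore stands for libraries that differed widely among themselves, and the labels give no reason for the difference.

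Set directly against VDR-null, VDRgem incisors had 21 of the 43 genes lower and none higher, where 8.18% of all tested genes were lower. The median log2 fold change was -0.47, and 41 signs were negative, the others being Cdt1 and Pold1. In 21 genes every VDRgem library lay below every VDR-null library, against 8.84% of all tested genes. The 6 called genes with the smallest p were Cdc6, Rrm2, Mcm4, Pole, Orc1 and Dbf4. Cdc6 fell by 1.15 (SE 0.25, adjusted p = 0.0101), Rrm2 by 0.88 (SE 0.21, adjusted p = 0.0163) and Mcm4 by 0.71 (SE 0.18, adjusted p = 0.0167). Pole fell by 1.09 log2 units (SE 0.27, adjusted p = 0.0169) and Orc1 fell by 1.17 log2 units (SE 0.29, adjusted p = 0.0172). Dbf4 had 10.9, 12.1 and 11.5 CPM in VDRgem, 21.8, 12.6, 16.1, 20.3 and 17.7 CPM in VDR-null and 14.7, 15.2, 16.2, 17.3 and 19.5 CPM in control. No VDRgem library of Dbf4 reached any library of the other groups. Dbf4 fell by 0.62 log2 units (SE 0.16, adjusted p = 0.0173), and had -0.39 (SE 0.16, adjusted p = 0.134) with an offset for the trend of each library on transcript GC content (the GC offset).

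Of the genes called in VDRgem, 16 were called against both VDR-null and control, 5 against VDR-null alone (Dbf4, Orc2, Orc3, Orc5 and Rfc1, none of which passed with the GC offset, at adjusted p of 0.107 to 0.328) and 9 against control alone (Cdt1, Fen1, Gins2, Gmnn, Lig1, Mcm2, Mcm7, Pcna and Tyms), and 13 passed in neither. The VDRgem libraries enter both comparisons. Orc2 fell by 0.34 log2 units (SE 0.11, adjusted p = 0.0411) in VDRgem against VDR-null, with 0.20 (SE 0.09, adjusted p = 0.203) in VDR-null against control. With the GC offset Orc2 had -0.16 (SE 0.08, adjusted p = 0.221) in VDRgem against VDR-null, and 29.8% of its exon length overlaps Nif3l1 on the opposite strand, which held 14906 counts beside 15543 for Orc2. The count of 21 was 0, 5 or 11 without VDRgem 1, 2 or 3, and 9 or 11 without VDR-null 1 or 4, the VDR-null libraries with the highest levels. Of all tested genes 0.623%, 2.52% and 10.8% were lower without VDRgem 1, 2 or 3, and 4.29% and 5.4% without VDR-null 1 or 4. The count was 0 when the control libraries were left out of the fit (26 with an unadjusted p under 0.05, smallest adjusted p 0.0575), where 0.964% of all tested genes were lower.

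Base composition moved with part of these values. The longest transcripts of the 43 genes had a median GC content of 47.1%, against 49.7% for all tested genes, and Pold1 and Cdt1 were the richest at 61.0% and 57.8%. Each library's deviation from the mean over libraries had a slope on GC content that differed between libraries, from -0.332 log2 units per 10 points in VDR-null 1 to 0.303 in VDRgem 1. Slopes were 0.177 and -0.0355 in VDRgem 2 and 3, -0.222, 0.0397, -0.0594 and -0.233 in VDR-null 2 to 5, and -0.0356 to 0.156 in control. Across the 43 genes, which are not independent, the Pearson correlation of GC content with the log2 fold change was -0.376 in VDRgem against control and -0.813 in VDR-null against control. Over all tested genes it was 0.0706 and -0.331 in the same comparisons.

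With the GC offset, which follows a smooth trend in each library and was chosen after the data were seen, VDRgem against control had a count of 25, VDR-null against control had 0 and VDRgem against VDR-null had 11, where 4.96%, 0.0336% and 4.73% of all tested genes were lower. In VDRgem against control 24 genes were called with and without the offset, Pcna only without it (adjusted p = 0.0554 with it) and Pold1 only with it. In VDRgem against VDR-null 10 genes were called both ways, Mcm7 only with the offset and 11 only without it (Orc2, Orc3, Orc5, Orc6, Mcm6, Gins1, Gins3, Dbf4, Rfc1, Rfc4 and Rrm1). Cdt1 then had -0.50 (SE 0.13, adjusted p = 0.114) and Pold1 -0.37 (SE 0.16, adjusted p = 0.303) in VDR-null against control. In VDRgem against control Cdt1 had -0.72 (SE 0.16, adjusted p = 0.0152) under the same offset. The fall of Cdt1 in VDRgem thus passed with and without the offset, and that in VDR-null passed only without it.

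**Figure D4:**
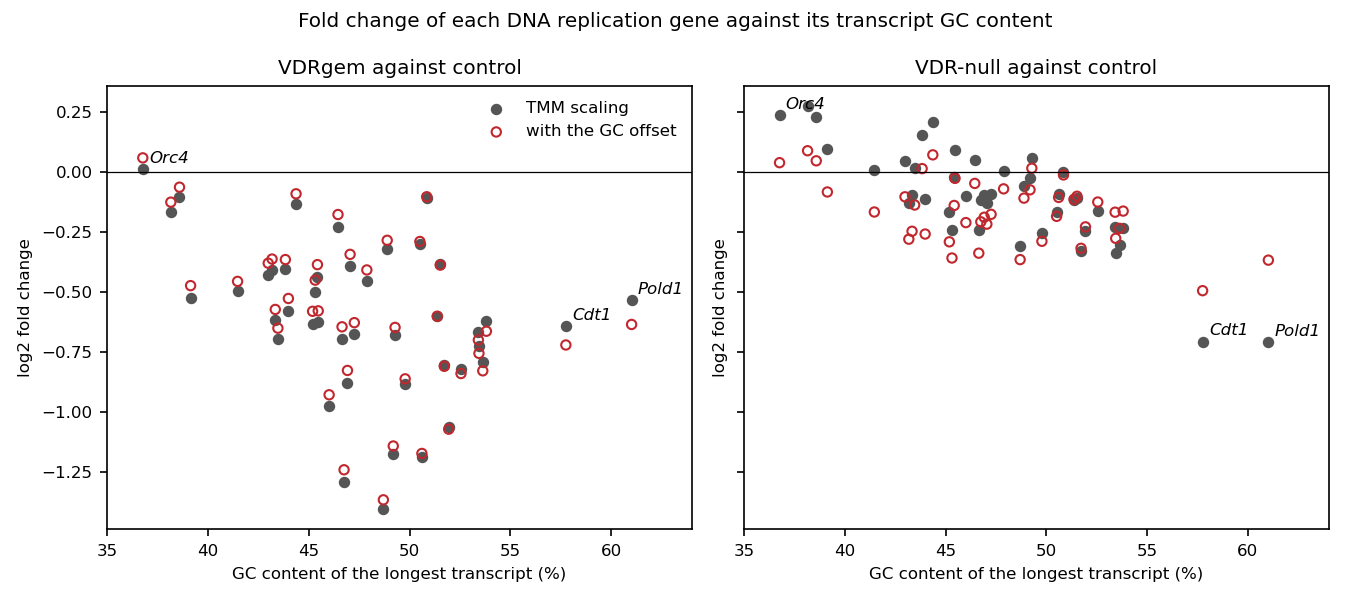
Log2 fold change of each of the 43 genes against the GC content of its longest transcript, with TMM scaling (filled) and with the GC offset (open), for VDRgem against control and VDR-null against control. Cdt1 and Pold1 lie far to the right, and in VDR-null against control their filled points are the lowest, at -0.71 each.

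Genes around the core machinery were read from lists of the same pathway. Of 42 other replication genes, 22 fell in VDRgem against control and none rose, where 3.82% of all tested genes fell. The median log2 fold change of the 42 was -0.50. Those with the smallest p included Timeless, Dtymk, Ticrr and Uhrf1. Timeless, a fork protection factor, averaged 16.8 ± 1.41 CPM in VDRgem and 27.7 ± 1.09 CPM in control (SD, n = 3 and 5) and fell by 0.72 log2 units (SE 0.15, adjusted p = 0.0138). Dtymk, thymidylate kinase, averaged 23.7 ± 2.11 CPM in VDRgem and 34.1 ± 3.27 CPM in control and fell by 0.53 log2 units (SE 0.11, adjusted p = 0.0138). The larger falls among these 4 were those of Ticrr, an origin firing factor, and Uhrf1, needed to copy DNA methylation behind the fork. Ticrr fell by 1.34 log2 units (SE 0.28, adjusted p = 0.0155) and Uhrf1 fell by 1.22 log2 units (SE 0.26, adjusted p = 0.0157). None of the 42 passed in VDR-null against control (smallest adjusted p 0.0571).

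Of 32 genes that control entry into S phase, 7 fell and none rose in VDRgem against control, where 3.82% of all tested genes fell. The list holds both activators and inhibitors of that entry. Its median log2 fold change was -0.25, with 24 negative and 8 positive signs. Mycn, a growth-promoting transcription factor, had 2.51, 3.06 and 3.31 CPM in VDRgem, 13.7, 2.96, 4.85, 12.3 and 10.2 CPM in VDR-null and 16.9, 13.4, 12.4, 16.7 and 12.2 CPM in control. All VDRgem libraries lay below control, and VDR-null 2 lay between them. Mycn fell by 2.27 log2 units (SE 0.41, adjusted p = 0.00986), more than any of the 43 replication genes. E2f2 and E2f7, E2F family transcription factors, fell by 0.75 (SE 0.14, adjusted p = 0.0110) and 1.14 (SE 0.26, adjusted p = 0.0215). Ccnd1, the G1 cyclin D1, and Ccna2, the S-phase cyclin A2, fell by 0.96 (SE 0.19, adjusted p = 0.0123) and 1.09 (SE 0.25, adjusted p = 0.0213).

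Of 20 mitosis genes, 19 fell in VDRgem against control, where 3.82% of all tested genes fell. Their median log2 fold change was -1.03, a larger size than the -0.62 of the replication genes. The mitotic kinase Aurka, the kinesin Kif20a, the centromere histone Cenpa, the anaphase activator Cdc20 and the kinase Aurkb had the smallest p, with log2 fold changes of -1.26, -1.08, -0.89, -1.14 and -1.10. In VDR-null against control the 20 genes had a median of -0.13 and none passed (smallest adjusted p 0.191). The mean log2 CPM of the mitosis list was 3.90, 4.11 and 3.92 in VDRgem, 5.24, 3.92, 4.61, 5.20 and 4.90 in VDR-null and 4.72 to 5.18 in control, so VDR-null 2 was again the lowest of its group and VDR-null 1 and 4 the highest.

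**Figure D5:**
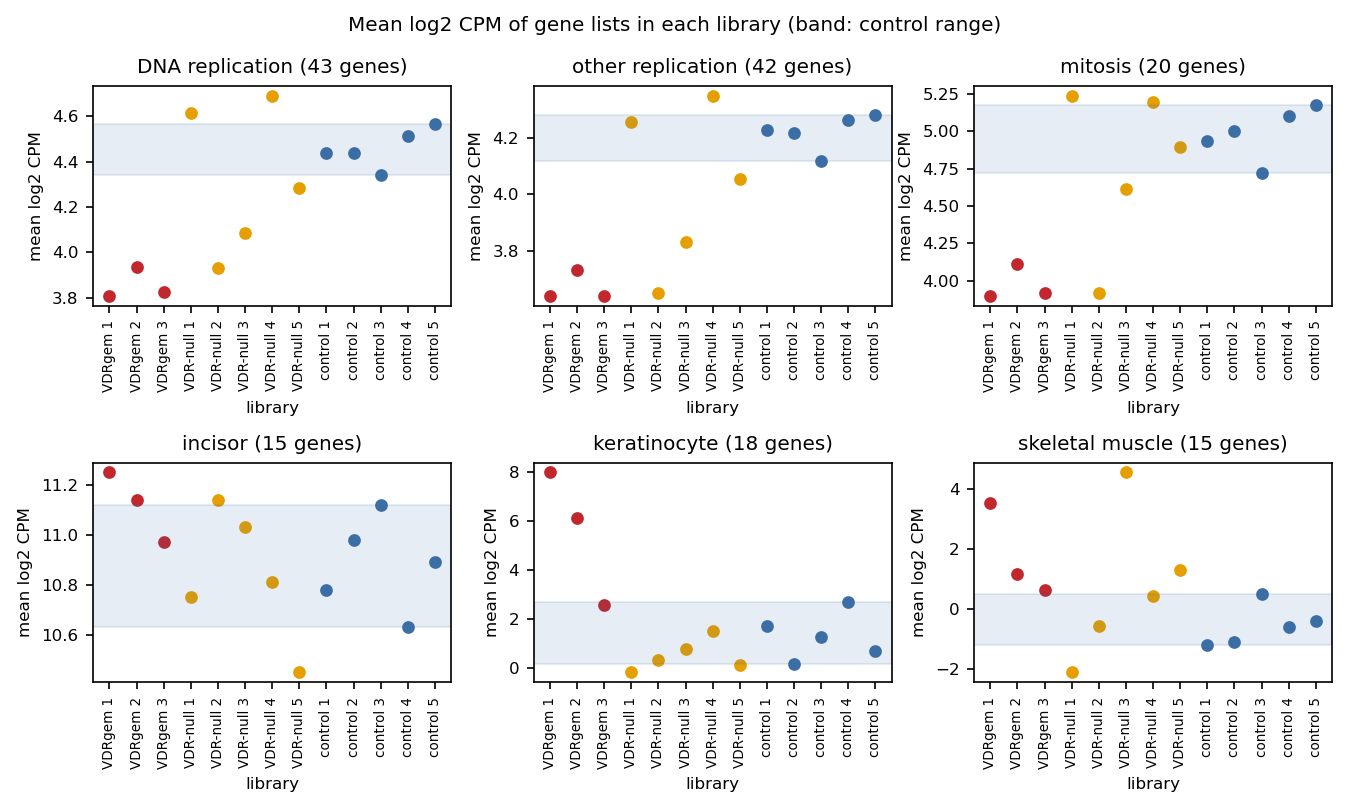
Mean log2 CPM of gene lists in each library (band, range of the 5 control libraries). The DNA replication, other replication and mitosis lists lie below the band in all 3 VDRgem libraries and in VDR-null 2 and 3, the DNA replication and other replication lists also in VDR-null 5, whereas the keratinocyte list lies far above it in VDRgem 1 and 2 only.

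Markers of other cell types differed between the libraries too. The mean log2 CPM of the 43 replication genes was 3.81, 3.94 and 3.83 in VDRgem, 4.61, 3.93, 4.08, 4.69 and 4.28 in VDR-null and 4.34 to 4.57 in control. An 18-gene keratinocyte list stood at 8.00, 6.12 and 2.56 in VDRgem, -0.17 to 1.52 in VDR-null and 0.17 to 2.68 in control, and 14 of its 15 tested genes rose in VDRgem against control, where 4.80% of all tested genes rose. Its summed level was 24850, 7125 and 1593 CPM in VDRgem, 474 to 1540 CPM in VDR-null and 944 to 1536 CPM in control. VDRgem 3 thus lay within the control range of the mean and just above that of the sum. By single genes, 5 of the 15 tested had every VDRgem library above every control, against 1608 of all 17837 tested genes. In VDRgem 3, Krt10 had 14.1 CPM and Krt6a 79.7 CPM, where the highest controls had 6.96 and 59.2 CPM. The replication genes of VDRgem 3 were close to the level of VDRgem 1. With the keratinocyte level as a covariate none of the 43 genes passed in VDRgem against control (29 with an unadjusted p under 0.05), and their median log2 fold change was -0.70. In that fit no gene of all 17837 passed (2606 with an unadjusted p under 0.05). Without VDRgem 1 and 2 together none of the 43 passed (31 with an unadjusted p under 0.05), where 0.0210% of all tested genes were lower, and the median was -0.68.

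Skeletal muscle genes were highest in VDR-null 3 and VDRgem 1. Their summed levels were 39.8 to 305 CPM in VDRgem, 7.45 to 771 CPM in VDR-null and 11.5 to 36.5 CPM in control. Of 13 tested genes 1 rose in VDRgem against control, where 4.80% of all tested genes rose. Immediate early genes, which respond quickly to stimuli, summed to 259 to 634 CPM in VDRgem. The same sum was 166 to 260 CPM in VDR-null and 193 to 245 CPM in control. Of these 15 genes 7 rose in VDRgem against control, beside the same 4.80%. The erythroid list had a mean log2 CPM of 2.54 to 3.11 in VDRgem, 0.86 to 2.54 in VDR-null and 2.31 to 2.47 in control, and the macrophage and neutrophil list 2.72 to 2.99, 1.96 to 2.74 and 2.26 to 3.27 in the same groups; none of their genes passed in VDRgem against control. Enamel and dentin genes, the defining markers of the tissue, were abundant in every library. The summed level of their 15-gene list was 237600, 227500 and 214700 CPM in VDRgem, 114000, 217400, 211800, 145000 and 136100 CPM in VDR-null and 154500 to 195900 CPM in control. The VDR-null libraries with the 2 highest sums, VDR-null 2 and 3, were those with the lowest replication levels. No gene of any of these lists was without a count in all libraries. The part of these lists in the replication values was not tested.

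Total counts ran from 20405188 to 87783466 per library, and the smallest count of any of the 43 genes in a library was 45, for Orc1. Any pair of libraries differed by more than counting noise, with chi-square values of at least 15.2 for each degree of freedom within groups and 24.6 across groups.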

How the data were processed

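The 13 RNA-seq libraries, 3 VDRgem, 5 VDR-null and 5 control, came from whole lower incisors of male pups (postnatal day 5). Stranded poly-A libraries were made from total RNA, per the labels' protocols. The deposited values are whole-number counts per Ensembl gene, unscaled. Per the submitters' processing notes, the tools named are HTSeq 0.6.1p1, STAR 2.5.3a and bcl2fastq 2.20.0.422, and the build is mm10. Reads that fit opposite-strand or copied genes could be split or lost in counting. The annotation release, counting mode and strand setting were not given in the sources used here. Among other genes called in VDRgem against control, opposite-strand exons also overlap 10.8% of the exon length of Orc1 (Gm12743) and 10.7% of Rfc5 (Wsb2). The share was 7.25% for Mcm7 (Ap4m1), 6.93% for Orc6 (Vps35), 5.96% for Cdc45 (Ufd1) and 5.79% for Lig1 (Zswim9). Of 34709 genes 1143 had no count. GENCODE M21 (GRCm38) gave symbols (34618 matched), coordinates, exon lengths and the GC content of transcripts, and promoter windows from RefSeq (GRCm38.p6), taking the first window listed for a gene.

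The main test was edgeR 4.0.16 (R 4.3.3) with TMM scaling, filterByExpr with a minimum count of 10 (17837 genes), 1 fit of all 13 libraries by group without covariates, the quasi-likelihood test for each comparison, and Benjamini-Hochberg adjustment over all genes tested, with a call at an adjusted p under 0.05. SE is the size of the log2 fold change divided by the square root of its F value. CPM is TMM-scaled, and CPM per kilobase divides it by the joined length of all annotated exons of a gene. List levels average log2 CPM (prior count 2), and SD is the spread between libraries. The test was tried on simulated counts.

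The 43 genes and all lists were chosen with earlier results of these data known. Values in every library are given, in each role, for up to 3 genes with the smallest p and the 1 with the largest p in VDRgem against control, and for up to 6 called genes with the smallest p in the other comparisons; from the other lists, up to 5 called genes are named. From those lists 1 gene is not reported here. Orc2 was also named in VDRgem against VDR-null after its values were seen.

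Alternatives were DESeq2 1.42.0, limma-voom 3.58.1, RLE size factors, library totals, robust dispersion, omission of the low-count filter, a filter at a mean of 1 CPM, the keratinocyte level or 1 surrogate variable (sva 3.50.0) as a covariate, only the groups compared, an adjusted p under 0.10, each library left out, VDRgem 1 and 2 left out, and, added after the data were seen, a GC offset (spline with 5 degrees of freedom). Plots used Python 3.11.15 and matplotlib 3.10.9.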

Additional observations from a re-analysis of the deposited data

Results flagged for a closer look

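Within the 5 control libraries, 1 library stood apart from the rest for 3 of the 32 genes examined, those named with values. The gap of that library to its nearest neighbour on the log2 CPM scale, divided by the range of the group, was 0.738 for Mcm4 (control 5, the highest), 0.767 for Mcm8 (control 3, the lowest) and 0.792 for Rfc4 (control 5, the highest), above the critical value of 0.71. These 32 genes and the mean of the 43, each in VDR-null and control, made 66 groups of 5 libraries, and chance flags about 1 in 20 of them. All VDRgem libraries lay below the lowest control for these 3 genes.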

How the results depend on the processing

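Main counts of called genes among the 43 were 25 in VDRgem against control, 1 in VDR-null against control and 21 in VDRgem against VDR-null, and no alternative gave a gene that rose. DESeq2, limma-voom, RLE size factors, library totals, both other filters, robust dispersion and the looser threshold gave 20 to 30 in VDRgem against control and 16 to 30 in VDRgem against VDR-null. Of all tested genes 1.61% to 8.84% and 2.59% to 20.3% were lower in these 2 comparisons, the looser threshold aside. The highest shares were those with library totals. Library totals moved the median of all tested genes by -0.17 in VDRgem against control and by -0.16 in VDRgem against VDR-null. The keratinocyte covariate gave 0, 0 and 0 in the 3 comparisons (29, 3 and 15 with an unadjusted p under 0.05), and 1 surrogate variable gave 0, 2 and 0 (28, 7 and 17). Leaving out VDRgem 1 and 2 gave 0, 1 and 0 (31, 6 and 19), in a fit that assumes the remaining VDRgem library varies like the other groups. With only the groups compared VDRgem against VDR-null gave 0 (26), and VDRgem against control 33. In these fits 0.964% and 5.39% of all tested genes were lower. DESeq2 and the looser threshold each gave 2 in VDR-null against control. Of all tested genes 4.84% were lower in that comparison with DESeq2 and 3.39% with 1 surrogate variable. With the keratinocyte covariate, the surrogate variable or VDRgem 1 and 2 left out, at most 0.213% of all tested genes were lower in VDRgem in either comparison. The GC offset, chosen after seeing the data, gave 25, 0 (6 with an unadjusted p under 0.05) and 11. Leaving out each library gave 0 to 28, 0 to 2 and 0 to 29. The cause of these moves was not tested. Orc5 in VDRgem against control turned to 0.19 with the keratinocyte covariate, 0.0152 with 1 surrogate variable and 0.0661 without VDRgem 1 and 2. Orc4, at 0.01, turned to -0.15 with library totals and ran from -0.13 (without VDRgem 3) to 0.0907 (without VDRgem 1) when 1 library was left out, with -0.0129 without control 1 and -0.0109 without control 4. No paired analysis was possible because the labels give no replicate numbers and link no library to a library of another group. No replicate block could therefore be fitted. A group of 3 or 5 libraries, and the wide spread of VDR-null, limit what can be called. A gene that missed the threshold is not shown to be equal between groups.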
